A study of Mus musculus with 10 samples.

Results

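Somatostatin and 4 further transcripts that mark the delta cell, Sst, Hhex, Rbp4, Ghsr and Ptprz1, were followed in islets of mice whose glucagon receptor (GCGR) was blocked with an antibody. They were taken by symbol from a table of 24475 genes, and 5 of 5 were found. The islets, hormone-secreting cell clusters of the pancreas, came from C57BL/6 mice given REGN1193, a GCGR-blocking antibody (5 libraries, numbered 1 to 5), or an isotype control antibody (5 libraries, numbered 6 to 10). No other allele or agent is named for either group, and dose, duration, age, sex and whether each library is a separate animal are not stated in the labels used here. All p-values therefore measure the spread between these libraries, which may be technical. Whole islets were sequenced, so more delta cells and more RNA per delta cell cannot be told apart in any value below.

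Delta cells release somatostatin, a peptide that acts on neighbouring alpha and beta cells and restrains the secretion of glucagon and insulin. HHEX is a homeobox transcription factor needed in mice to form and maintain delta cells. Ghrelin acts on delta cells through its receptor GHSR and stimulates somatostatin release. RBP4 is the blood carrier of retinol and PTPRZ1 is a receptor tyrosine phosphatase best known from glia, and both are also enriched in delta cells.

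Sst lies on chromosome 16, from 23889573 to 23891342 in RefSeq's annotation of GRCm38.p6 (Entrez 20604). Its GENCODE M21 transcript of 721 bases has 2 exons and a coding sequence of 116 codons. The last 14 codons, in exon 2, encode the mature somatostatin peptide of that length. They are shown because this is the hormone the row reports on, with capitals marking the cysteine codons, codons 3 and 14 of the stretch, whose residues form the disulfide bridge of the peptide. They lie at chr16:23889732-23889773 on the minus strand (GRCm38).
Sst, last codons before the stop: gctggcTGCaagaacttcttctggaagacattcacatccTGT

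The proximal promoters of the transcripts with the largest antibody to isotype differences (Sst and Rbp4) are shown because these genes also ordered the libraries alike. RefSeq windows reach from 250 bases before to 50 bases after each start (GRCm38.p6, 300 bases, 5′ to 3′ on the strand of the gene). For Sst and Ptprz1 the start used lies inside the annotated gene span, not at its outer 5′ end. Windows for 5 of the 5 genes were found, with 2 start sites for Rbp4. Capitals mark the cyclic AMP response element TGACGTCA, its core TGACG, which is contained in the longer form, and the TATA box TATAAA, searched on both strands. The Sst window is chr16:23890795-23891094 (minus strand), and the window of the downstream Rbp4 start is chr19:38124762-38125061 (minus strand).
Sst promoter: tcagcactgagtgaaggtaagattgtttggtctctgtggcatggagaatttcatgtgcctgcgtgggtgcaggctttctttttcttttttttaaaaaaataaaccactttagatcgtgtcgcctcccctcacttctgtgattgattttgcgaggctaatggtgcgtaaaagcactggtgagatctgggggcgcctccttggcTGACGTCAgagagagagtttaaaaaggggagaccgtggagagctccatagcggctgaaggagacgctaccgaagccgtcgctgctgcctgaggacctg
Rbp4 promoter, downstream start: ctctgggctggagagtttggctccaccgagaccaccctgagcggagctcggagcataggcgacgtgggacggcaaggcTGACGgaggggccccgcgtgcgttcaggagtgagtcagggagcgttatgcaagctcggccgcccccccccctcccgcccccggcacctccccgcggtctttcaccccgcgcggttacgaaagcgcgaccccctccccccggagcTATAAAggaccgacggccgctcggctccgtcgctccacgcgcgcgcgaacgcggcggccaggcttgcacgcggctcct

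The full element TGACGTCA begins 48 bases before the Sst start site used here, and 1.79% of 32851 promoter windows hold it. The Rbp4 window holds the core TGACG, found in 20.8% of windows, and TATAAA, found in 13.6%. The windows of Hhex, Ghsr and Ptprz1 and the upstream Rbp4 window hold none of the 3 motifs. These are letter matches in short windows and say nothing of binding in these islets.

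All values are RPKM, reads per kilobase of transcript scaled to the depth of the library. Depth was estimated at 14.6 to 18.0 M reads in the antibody group and 12.3 to 14.8 M in the isotype group. Of 10 alpha cell genes 8 rose with the antibody, as judged by the limma test described below, where 0.394% of all tested genes did. The 10 acinar cell genes all had negative log2 fold changes (median -0.70), with 0 called, where 33.5% of all tested genes had positive ones. The summed level of the acinar genes ran from 3534 to 11130 RPKM in antibody and from 2870 to 15770 RPKM in isotype libraries. Antibody library 5 had the highest acinar level of its group, and isotype library 10 the highest mean log2 level of 10 ductal genes.

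The delta cell genes were present in every library. Sst was the 13th most abundant transcript of the table by mean RPKM, Rbp4 ranked 337, Hhex 6136, Ptprz1 11156 and Ghsr 11267. Sst exceeded Rbp4 by 18.6 to 38.2 times, Rbp4 exceeded Hhex by 11.5 to 25.2 times, and Hhex exceeded Ghsr by 3.13 to 6.96 times, each in 10 of 10 libraries. The Ghsr to Ptprz1 ratio ran from 0.579 to 1.94, with Ghsr the higher of the pair in 2 of 5 antibody and 1 of 5 isotype libraries. With GENCODE M21 transcript lengths, the values rest on about 18013 to 107144 reads per library for Sst and 1088 to 4773 for Rbp4. For Hhex they rest on 123 to 375, for Ghsr on 58 to 178 and for Ptprz1 on 88 to 337. The longest of 2 lengths for Rbp4 and of 3 for Ptprz1 was used, so their reads are upper figures. Counting error is thus small for Sst and Rbp4 and larger for Hhex, Ghsr and Ptprz1.

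Every delta cell gene averaged higher with the antibody, by 1.31 times (Ptprz1) to 1.95 times (Rbp4), and 0 of 5 passed the test over all genes. The test was limma on log2(RPKM + 0.5) with Benjamini-Hochberg adjustment over 13450 genes, of which 0.409% passed an adjusted p under 0.05, 0.394% higher and 0.0149% lower. At an unadjusted limma p under 0.05, 4 of 5 members were higher (Sst, Hhex, Rbp4 and Ghsr), where 2.84% of all tested genes were higher and 7.02% passed in either direction. Fold changes were positive in 5 of 5 members and in 33.5% of all tested genes, with medians of 0.48 for the members and -0.07 for all tested genes. In 0 of 5 members did all antibody libraries exceed all isotype libraries, which 1.14% of tested genes reached. The members were chosen with results of these data known, so these counts describe them and are no test.

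The hormone transcript Sst stood at 5088, 7405, 9441, 5126 and 3572 RPKM in antibody libraries 1 to 5, against 2223, 4734, 4822, 2724 and 1967 RPKM in isotype libraries 6 to 10. In 4 of 5 antibody libraries the level lay above every isotype library, and antibody library 5 lay among them. Mean levels were 6127 ± 2303 RPKM under the antibody, against 3294 ± 1382 RPKM under isotype (SD, 5 libraries each). The log2 fold change was 0.92 (SE 0.33, 95% interval 0.20 to 1.63, limma adjusted p = 0.544), and the exact permutation p over all assignments of the libraries was 0.0397 (two-sided). Within a group the highest library held 2.64 times the Sst level of the lowest with the antibody and 2.45 times with the isotype control, more than the difference between the group means.

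Hhex (Entrez 15242), the transcription factor, lies on chromosome 19 from 37434841 to 37440731. Its level was 9.71, 11.9, 13.2, 10.7 and 6.97 RPKM in antibody libraries 1 to 5, against 7.55, 8.56, 7.78, 7.44 and 5.36 RPKM in isotype libraries 6 to 10. As for Sst, 4 of 5 antibody libraries lay above the whole isotype group, and antibody library 5 was the exception, below 4 of the isotype libraries. The log2 fold change was 0.48 (SE 0.17, 95% interval 0.10 to 0.85, limma adjusted p = 0.547; exact permutation p = 0.0397). Hhex is also made in pancreatic ducts and endothelium, and of 9 tested ductal genes 4 had positive and 5 negative fold changes (median -0.05), with 0 called. Of 8 endothelial genes 1 was positive and 7 negative (median -0.12), with 0 called, where 33.5% of all tested genes were positive. The part of ducts and endothelium in the Hhex level was not tested.

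Rbp4 (Entrez 19662), the retinol carrier, lies on the same chromosome from 38116620 to 38125321 and had the largest log2 fold change of the members. It stood at 244, 225, 255, 210.0 and 119 RPKM in antibody libraries 1 to 5, against 119.7, 124, 138, 85.5 and 73.8 RPKM in isotype libraries 6 to 10. Again 4 of 5 antibody libraries exceeded every isotype library while antibody library 5 did not. Means were 211 ± 54.0 RPKM under the antibody, against 108 ± 27.4 RPKM under isotype (SD, 5 libraries each). The log2 fold change of 0.95 (SE 0.23, 95% interval 0.44 to 1.45) had a limma adjusted p of 0.187 and an exact permutation p of 0.0317. Without antibody library 5, the lowest of its group, the log2 fold change was 1.14 and passed (limma adjusted p = 0.0243). Leaving out the lowest antibody value raises the fold change by itself. With limma array weights, which give less weight to libraries far from their group, Rbp4 passed with all 10 libraries too (adjusted p = 0.00705). Array weights called 121 of 13450 genes higher and 61 lower, against 53 and 2 without them. Of 24 alternative settings 3 gave a call for Rbp4. Liver is the main source of RBP4 in the body. The summed level of 6 hepatocyte genes was 0.927 to 2.27 RPKM in antibody and 0.717 to 5.72 RPKM in isotype libraries. A part of other tissues in the Rbp4 level was not tested.

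Ghsr (Entrez 208188), the ghrelin receptor, lies on chromosome 3 from 27371351 to 27379235. Its level was 1.75, 2.17, 1.93, 1.54 and 2.22 RPKM in antibody libraries 1 to 5, against 1.69, 1.47, 1.41, 1.24 and 1.03 RPKM in isotype libraries 6 to 10. The groups overlapped through antibody library 4 and isotype library 6 alone, and antibody library 5, lowest of its group for Sst, Hhex and Rbp4, was here the highest of all. The log2 fold change was 0.38 (SE 0.14, 95% interval 0.07 to 0.68, limma adjusted p = 0.586; exact permutation p = 0.0159). On the log2(RPKM + 0.5) scale such low levels understate the fold, and the means, 1.92 ± 0.286 RPKM under the antibody, against 1.37 ± 0.246 RPKM under isotype (SD, 5 libraries each), differed by 1.40 times.

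Ptprz1 (Entrez 19283), the receptor phosphatase, lies on chromosome 6 from 22875315 to 23052916. It stood at 2.38, 2.25, 1.85, 1.14 and 2.32 RPKM in antibody libraries 1 to 5, against 0.870, 1.88, 1.60, 1.45 and 1.79 RPKM in isotype libraries 6 to 10. The groups overlapped broadly, and antibody library 4 lay below 4 of the isotype libraries. The log2 fold change of 0.30 (limma SE 0.20, adjusted p = 0.836; exact permutation p = 0.206) had a 95% interval from -0.14 to 0.74, which holds 0 as well as the fold changes of Hhex and Ghsr. Ptprz1 is also a glial gene, and 6 tested Schwann cell genes had a median of -0.12, with 0 called. Isotype library 6, lowest for Ptprz1, also had the lowest mean log2 level of the Schwann genes (-0.091). Antibody library 4, next lowest for Ptprz1, had a Schwann level of 0.50, within the range of its group, and isotype library 9, at rank 8 of 10 for Ptprz1, had the second highest Schwann level (1.146). Their part in the Ptprz1 level was not tested.

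**Figure D1:**
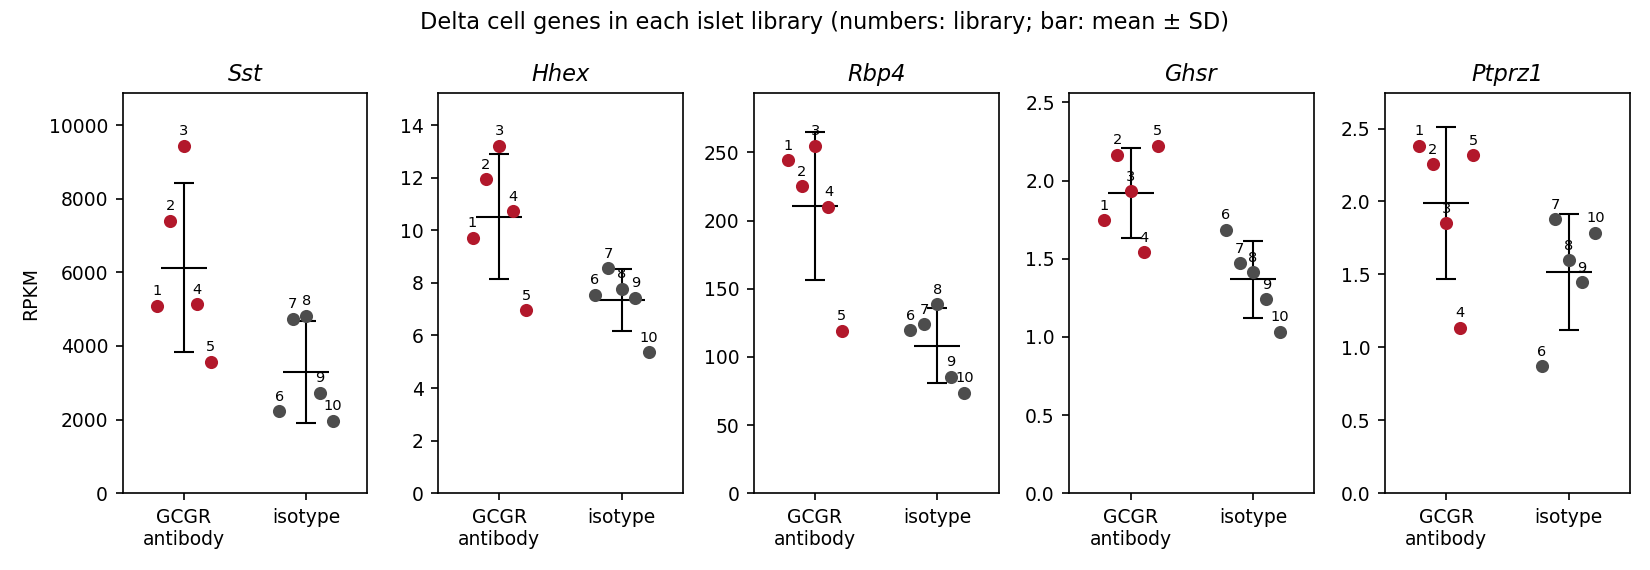
RPKM of the 5 delta cell genes (vertical axis from 0, each panel on its own scale) in antibody libraries 1 to 5 and isotype libraries 6 to 10, with points for libraries and bars for the mean ± SD. Antibody library 5 lies among the isotype libraries for Sst, Hhex and Rbp4 and above all of them for Ghsr.

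Sst, Hhex and Rbp4 ordered the libraries alike. Antibody library 3 was highest, antibody library 5 lowest of its group and isotype library 10 lowest of all 10 for each of the 3 genes. Ghsr shared the lowest library, and antibody library 2 ranked second for it as for Sst and Hhex, but its highest value was in antibody library 5. Ptprz1 had its lowest values in isotype library 6 and antibody library 4. The low place of antibody library 5 and isotype library 10 was not particular to these genes. Both were also lowest of their groups in the mean log2 level of 11 beta cell genes and of 3 pancreatic polypeptide cell genes. For 10 alpha cell genes the lowest were antibody library 1 and isotype library 10. The highest antibody library was 4 for the beta cell and 2 for the polypeptide cell genes. Log2 profiles, each centred on its mean over the 10 libraries, were compared by their root mean square difference. It was smallest for Hhex and Ghsr (0.29) among the 10 pairs of members. It was 0.31 for Hhex and Rbp4, 0.33 for Ghsr and Ptprz1, 0.34 for Sst and Rbp4 and 0.40 for Sst and Hhex. The other 5 pairs ran from 0.45 (Hhex and Ptprz1) to 0.63 (Sst and Ptprz1). All of these share the library depth and the treatment difference. The difference is smaller between genes that vary little, so this order does not rank how alike the members ordered the libraries. Antibody library 5 ranked 9 for Hhex and 1 for Ghsr.

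The ratio of Rbp4 to Sst within a library was nearly the same in both groups. On the log2 scale it was -4.83 ± 0.33 under the antibody, against -4.86 ± 0.41 under isotype (SD, 5 libraries each), a difference of 0.03. The ratios of Hhex, Ghsr and Ptprz1 to Sst were lower with the antibody by 0.44, 0.54 and 0.62 on the log2 scale, and for each the groups overlapped. The SD of these 3 ratios between libraries was 0.25 to 0.67 with the antibody and 0.46 to 0.57 with the isotype control. The pseudocount shrinks the fold changes of the low transcripts Ghsr and Ptprz1 and not that of Sst, so it makes these negative differences larger.

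Against the other islet hormones, Sst moved apart from glucagon and insulin and not detectably from pancreatic polypeptide. It was set against 3 hormones within each library, with exact permutation p-values adjusted over the 3 ratios. The log2 ratio of Sst to Gcg, the proglucagon gene, was -3.43 ± 0.51 under the antibody, against -1.96 ± 0.24 under isotype (SD, 5 libraries each). Every antibody library lay below every isotype library (difference -1.47, exact permutation p = 0.00794, the smallest that 5 against 5 libraries allow, adjusted p = 0.0119). In RPKM, Gcg exceeded Sst by 7.25 to 19.1 times in antibody libraries and by 3.25 to 4.84 times in isotype libraries. Gcg itself rose by 2.39 on the log2 scale (limma SE 0.27, adjusted p = 0.00174), with groups that did not overlap. Without the filter on low values the fold change was the same. The limma SE was then 1.25, and the call was lost (adjusted p = 0.784).

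The ratio of Sst to Ins2, an insulin gene, went the other way. It was -5.07 ± 0.35 under the antibody, against -6.44 ± 0.54 under isotype (SD, 5 libraries each), and all antibody libraries exceeded all isotype libraries (difference 1.36, exact permutation p = 0.00794, adjusted p = 0.0119). Ins2 alone had a log2 fold change of -0.45 (SE 0.37) that did not pass (limma adjusted p = 0.863). The ratio of Sst to Ppy, the pancreatic polypeptide gene, was 0.35 ± 0.22 under the antibody, against 0.15 ± 0.35 under isotype (SD, 5 libraries each), a difference of 0.19 within the spread (exact permutation p = 0.381, adjusted p = 0.381).

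**Figure D2:**
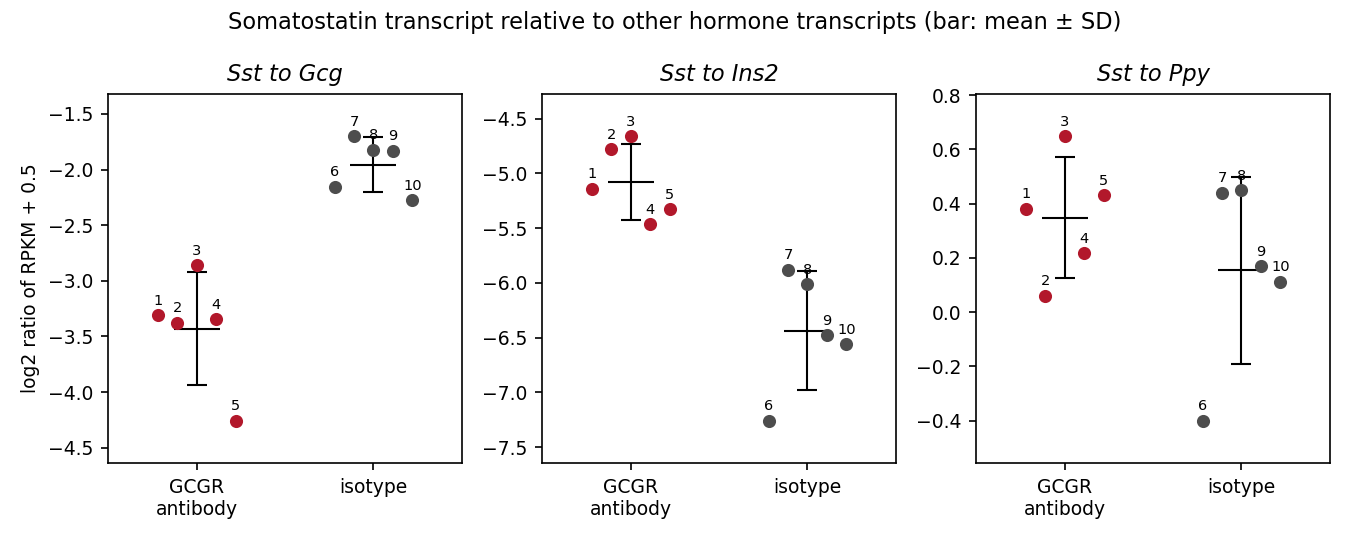
Log2 ratio of Sst to Gcg, Ins2 and Ppy within each library (vertical axis, RPKM + 0.5), with points for libraries and bars for the mean ± SD. The antibody libraries lie below all isotype libraries for Sst to Gcg and above all of them for Sst to Ins2, while for Sst to Ppy the groups overlap and antibody library 3 alone exceeds all isotype libraries.

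Of 12 further genes linked to delta cells, 8 were high enough to test and 0 passed. Fold changes were positive in 4 and negative in 4 (median 0.08), where 33.5% of all tested genes were positive. In 3 of the 8, among them Ffar4 and Spock3, the lowest antibody value exceeded the highest isotype value, where 1.14% of all tested genes did so, and 1.99% separated the groups in either direction. Ffar4, a receptor for long-chain fatty acids found on mouse delta cells, came closest to a call. It stood at 5.39, 6.65, 7.73, 6.08 and 3.56 RPKM in antibody libraries 1 to 5, against 3.16, 2.60, 2.999, 2.70 and 1.84 RPKM in isotype libraries 6 to 10. Its log2 fold change of 0.99 (SE 0.19) had a limma adjusted p of 0.0543, and 0.00797 without antibody library 5. In other settings that adjusted p ran from 0.000827 to 0.400. The 0.400 is the smallest adjusted p that the exact permutation test per gene gave for any gene. Apart from that test the largest was 0.185, without antibody library 2.

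Spock3, a secreted proteoglycan of the testican family, had a log2 fold change of 0.51 (limma SE 0.14, adjusted p = 0.294), with 2.33 ± 0.411 RPKM under the antibody, against 1.48 ± 0.248 RPKM under isotype (SD, 5 libraries each). The genes with negative fold changes included Casr, the calcium-sensing receptor (-0.34, limma SE 0.11, adjusted p = 0.455), Pdx1, a transcription factor shared by beta and delta cells (-0.16, SE 0.14), and Frzb, a secreted Wnt antagonist that marks human delta cells (-0.30, SE 0.15), the last 2 named after their values were seen. Casr, Pdx1 and Isl1, a transcription factor at 0.27 (SE 0.11), are expressed in other islet cells as well. Delta-linked genes therefore did not all share the direction of the 5 members.

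**Figure D3:**
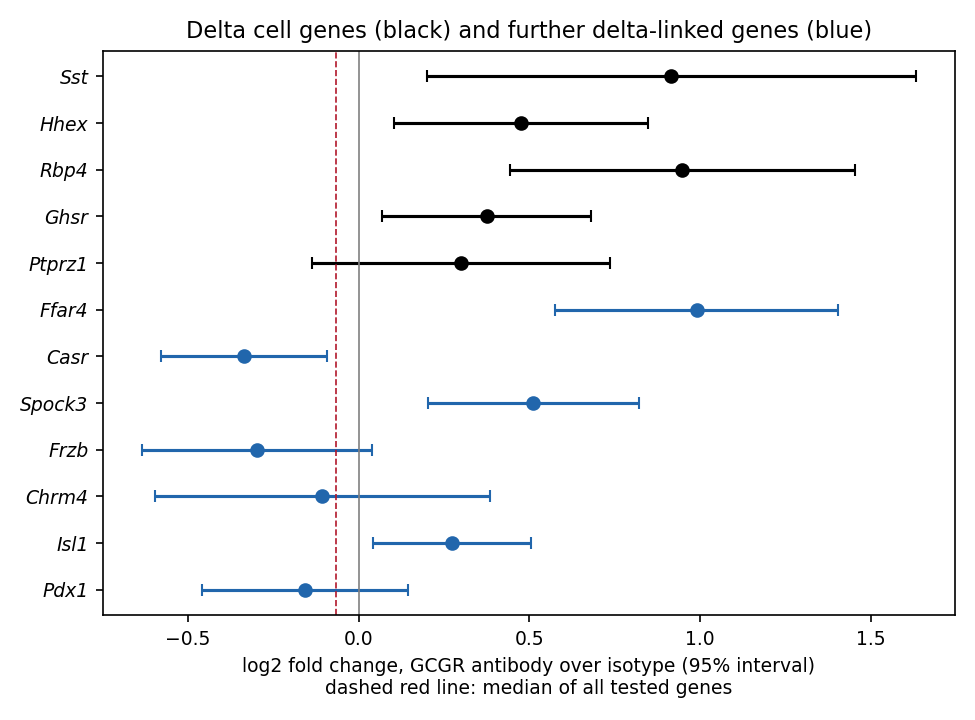
Log2 fold change of antibody over isotype libraries (horizontal axis) with its 95% interval for the 5 members in black and 7 of the 8 further tested delta-linked genes in blue, and the median of all tested genes as a dashed red line. The members lie between 0.30 and 0.95, Ffar4 at 0.99, while Casr, Frzb, Chrm4 and Pdx1 lie below 0.

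Hhex, Ffar4 and Rbp4 are close together on chromosome 19. The Hhex end and the Rbp4 start are 676 kb apart, and RefSeq places 16 genes between them, 7 with a row in the table and 3 of these tested. Ffar4, from 38097079 to 38114263 on the plus strand, ends 2356 bases from Rbp4 on the minus strand, so that the genes meet tail to tail. The Nextera XT kit does not mark the strand, so reads from any transcript that ran past its annotated end into the other could not be told apart. Exoc6, which encodes a subunit of the exocyst, stood at 12.3 ± 1.21 RPKM under the antibody, against 9.87 ± 0.605 RPKM under isotype (SD, 5 libraries each), with groups that did not overlap (log2 fold change 0.30, limma SE 0.10, adjusted p = 0.418). Myof, the membrane repair protein myoferlin, stood at 3.03 ± 1.75 and 3.36 ± 1.70 RPKM in antibody and isotype libraries (SD, 5 libraries each; log2 fold change -0.13, limma SE 0.40, adjusted p = 0.968). Around the other members, the nearest genes with a row on each side were taken, at any distance. Rtp4, which ends at 23614222 while Sst starts at 23889573, had a log2 fold change of 0.53 (limma SE 0.20, adjusted p = 0.594). Tnfsf10 and Fndc3b, which flank Ghsr, had 0.20 (SE 0.20) and -0.11 (SE 0.17). Fam3c, which ends at 22356081 while Ptprz1 starts at 22875315, had 0.04 (SE 0.11), with no call among these neighbours. Rtp2 and Aass, on the other sides of Sst and Ptprz1, were too low to test.

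**Figure D4:**
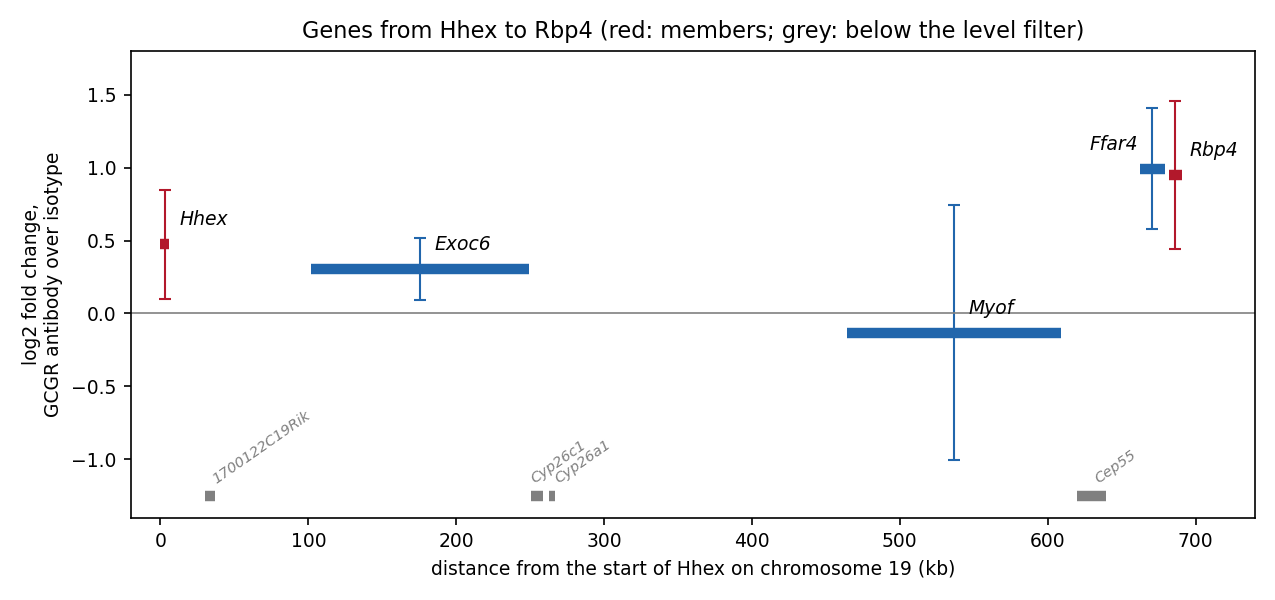
Genes from Hhex to Rbp4 drawn to scale by distance from the start of Hhex (horizontal axis, kb) at their log2 fold change of antibody over isotype (vertical axis), with 95% intervals, members in red and genes below the level filter in grey at the foot without a value. Ffar4 and Rbp4, side by side, lie at 0.99 and 0.95, and Exoc6 and Myof between Hhex and them at 0.30 and -0.13.

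The genes whose log2 profile was most like that of Sst over the 10 libraries, among 8381 tested genes averaging 5 RPKM or more, were Ppy (root mean square difference 0.28), Pyy, the peptide YY gene (0.28), and Rcn3, a calcium-binding protein of the secretory pathway (0.29). Rbp4 was nearest to Arg1, which encodes arginase (0.25), Ppy (0.26) and Sdf4, a calcium-binding protein of the Golgi (0.26). For Hhex they were Aplp1, an amyloid precursor-like protein (0.10), Capsl (0.11) and Gnas, the stimulatory G protein alpha subunit (0.14). Ghsr lay nearest to Zfp395 (0.11), St8sia3 (0.11) and Exoc6 (0.12), and Ptprz1 to Aff2 (0.13), Sbno2 (0.15) and Tceal8 (0.15). The distance is in log2 units and is smaller between genes that vary little, so distances of different members are not comparable. None of these genes passed over all genes, though with limma array weights Aplp1 (adjusted p = 0.0313), Arg1 (adjusted p = 0.0313) and Sdf4 (adjusted p = 0.0479) did. Ppy stood at 4819 ± 1758 RPKM under the antibody, against 2840 ± 729 RPKM under isotype (SD, 5 libraries each; log2 fold change 0.72, limma SE 0.28, adjusted p = 0.616).

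Of 6 genes of the somatostatin family and its receptors 3 were tested and 1 was called higher, where 0.394% of all tested genes were. Sstr2, the receptor that somatostatin uses on mouse alpha cells, stood at 2.70, 3.31, 2.86, 2.64 and 2.82 RPKM in antibody libraries 1 to 5, against 0.528, 0.842, 0.986, 0.912 and 1.12 RPKM in isotype libraries 6 to 10, with no overlap (log2 fold change 1.30, limma SE 0.14, adjusted p = 0.00150). Alpha cell genes rose too, so more alpha cells and more Sstr2 RNA per alpha cell cannot be told apart in whole islets. Sstr3, a receptor of mouse beta cells, had -0.19 (limma SE 0.13, adjusted p = 0.845) and Sstr1 0.25 (limma SE 0.24, adjusted p = 0.872).

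Upstream of the peptide, 0 of 5 prohormone processing genes were called, with a median of 0.09. Pcsk2, a prohormone convertase, had 0.25 (SE 0.13), Furin, a convertase of the trans-Golgi, -0.20 (SE 0.17), and Cpe, the carboxypeptidase that trims cut hormones, 0.16 (SE 0.16). Of 9 regulators of the somatostatin gene, Hhex included, 0 were called and the median was 0.06. Isl1 had 0.27 (limma SE 0.11, adjusted p = 0.603), and the homeobox factor Pknox1 -0.23 (SE 0.13).

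In the ghrelin system 4 of 6 genes were tested and 0 called (median -0.01). Ghrl, the ghrelin gene, had 0.37 (limma SE 0.22, adjusted p = 0.792), and the G proteins Gna11 and Gnaq, through which GHSR signals, -0.11 (SE 0.13) and -0.02 (SE 0.09). The sign for Gnaq turned in 6 of 24 other settings, among them all 3 further scalings.

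Of 16 genes of retinol transport and signalling, 9 were tested, 1 rose and 0 fell (median -0.06). Over all tested genes 0.394% were called higher and 0.0149% lower. Ttr, transthyretin, which binds RBP4 in blood and is also a marker of alpha cells, rose by 2.77 on the log2 scale (limma SE 0.22, adjusted p = 0.00023), with 5356 ± 1397 RPKM under the antibody, against 778 ± 171 RPKM under isotype (SD, 5 libraries each). Rdh10, a retinol dehydrogenase, had -0.78 (limma SE 0.30, adjusted p = 0.603). Aldh1a1, a retinal dehydrogenase, had -1.22 (limma SE 0.75, adjusted p = 0.811), with 1.60 ± 0.487 RPKM under the antibody, against 9.70 ± 14.3 RPKM under isotype (SD, 5 libraries each), where isotype library 10 alone held 34.7 RPKM. Without that library the log2 fold change of Aldh1a1 was -0.50.

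Around PTPRZ1, 9 of 10 ligand and partner genes were tested and 0 called (median 0.09). Mdk, midkine, a growth factor that binds PTPRZ1, had 0.67 (limma SE 0.25, adjusted p = 0.597), and Ptprg, the phosphatase most closely related to it, 0.56 (limma SE 0.17, adjusted p = 0.353), with groups that did not overlap for Ptprg. Cntn1, the neural adhesion molecule contactin, had -0.17 (SE 0.14). Of 10 genes for signals that reach delta cells, among them Ffar4 and Casr from above, 8 were tested and 0 called. Fold changes were positive in 2 and negative in 6 (median -0.24), where 33.5% of all tested genes were positive. The 8 included Glp1r, the GLP-1 receptor, at -0.48 (limma SE 0.21, adjusted p = 0.676), which stands mainly on beta cells.

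With the acinar level as a covariate the log2 fold changes were 0.79 for Sst, 0.36 for Hhex, 0.87 for Rbp4, 0.40 for Ghsr and 0.26 for Ptprz1, and with the ductal level 1.08, 0.47, 0.92, 0.36 and 0.45. No member passed in either fit.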

How the data were processed

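Polyadenylated islet RNA from 10 libraries was sequenced after density gradient isolation of islets and Nextera XT library preparation, per the labels' protocols. The authors deposited RPKM values per gene, computed before deposit. CASAVA 1.8.2, FastQC, GRCm38 and mm10 are named in the submitters' processing notes. The aligner and counting tool were not given in the sources used here, nor was the gene annotation. Depth was estimated from the steps between low RPKM values of 15621 genes with 1 known transcript length, and it covers counting error only.

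From the RPKM values, log2(RPKM + 0.5) was tested with limma 3.58.1 in R 4.3.3 (variance trend, Benjamini-Hochberg adjustment, threshold 0.05) on the 13450 genes averaging 0.5 RPKM or more. The fitting was tested on simulated data. Single values also had two-sided exact permutation tests over all assignments of the libraries, with Python 3.11.15 and numpy 2.4.6. Named genes were the 3 with the smallest p per delta pathway list, the 3 nearest profiles per member and the neighbouring genes. Members and lists were chosen with earlier results of these data known. Gene positions came from RefSeq (GRCm38.p6), where 24375 IDs matched. Alternatives were other pseudocounts, filters, scalings and variance models, covariates and left-out libraries. No pair of libraries shared more than 0.0246% of values above 1 RPKM. Some genes of the lists are counted but not reported here by name.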

Additional observations from a re-analysis of the deposited data

Results flagged for a closer look

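In 6 of 106 groups of 5 values examined, a library stood far from the other 4, where chance gives about 1 in 20. Isotype library 10 was involved in 3 of them. It was lowest for the convertase Pcsk2 at 770 RPKM (other isotype libraries 900 to 914) and for Zfp395 at 5.93 RPKM (7.51 to 8.11), and highest for the retinal dehydrogenase Aldh1a1 at 34.7 RPKM (0.334 to 8.22). Antibody library 5 was lowest for the carboxypeptidase Cpe at 981 RPKM (other antibody libraries 1413 to 1583). Antibody library 2 was highest for the ghrelin gene Ghrl at 8.29 RPKM (4.45 to 5.07), and antibody library 4 for Glp1r at 136 RPKM (63.7 to 80.5). No value of the 5 delta cell genes stood apart in this way.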

How the results depend on the processing

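No paired analysis was possible because the groups share no replicate numbers. Each of the 5 members kept a positive log2 fold change under every alternative run, from 0.67 to 1.09 for Sst, 0.36 to 0.61 for Hhex, 0.82 to 1.14 for Rbp4, 0.26 to 0.46 for Ghsr and 0.17 to 0.45 for Ptprz1. Other filters, variance trends, robust variance and the permutation test leave the fold change itself as it is, so no sign could turn there. Ghsr and Ptprz1 were not tested at the minimum of 5 RPKM. Leaving out each library in turn gave 0.82 to 1.14 for Rbp4. With limma array weights, which give less weight to libraries far from their group, Hhex (0.58, adjusted p = 0.0428) and Rbp4 (1.06, adjusted p = 0.00705) passed, so 2 members were called. That setting called more genes in general, 121 of 13450 higher and 61 lower, against 53 and 2 in the main fit. With antibody library 5 and isotype library 10 both left out, Rbp4 alone passed (1.01, adjusted p = 0.0250), so 1 member was called. Over all 13450 genes 37 were then called higher and 5 lower. Leaving out each library in turn gave 0 to 1 members called, the 1 being Rbp4 without antibody library 5. Without that library 50 of 13450 genes were called higher and 3 lower. With array weights Aplp1 (0.54), Arg1 (1.05), Sdf4 (0.66) and Casr (-0.40, adjusted p = 0.0431) passed too. The differences of the log2 ratio ran from -1.62 to -1.27 for Sst to Gcg and from 1.16 to 1.503 for Sst to Ins2. Groups that do not overlap give the smallest p whichever library is left out, so that p says nothing of their stability.

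Genes called higher numbered 53, and 23 with a minimum mean of 5 RPKM, 121 with array weights, 0 with the exact permutation test per gene (whose smallest adjusted p was 0.400, so that Gcg, Ttr and Sstr2 were lost there too) and 31 to 50 with each library left out. Genes called lower numbered 2, and 1 without the filter on low values, 0 with the minimum of 5 RPKM, 5 with quantile normalization, 1 without the variance trend, 61 with array weights, 4 with the acinar and 5 with the ductal covariate, 0 with the exact permutation test, 5 with both libraries left out and 0 to 20 with each library left out, 20 being without isotype library 6. At an unadjusted limma p under 0.05, 382 genes were higher and 562 lower, so lower genes were the more frequent there. Higher genes made up 96.4% of calls at the adjusted threshold, 66.5% with array weights and 66.7% without isotype library 6. Signs turned for Sstr1 with the acinar covariate (-0.0056), Gnaq with median centring (0.061), quantile normalization (0.054) and trimmed mean scaling (0.045), Myof with array weights (0.034), the ductal covariate (0.27) and both libraries left out (0.12), and Fndc3b with both left out (0.053). With each library left out the ranges were -0.052 to 0.017 for Gnaq, -0.44 to 0.12 for Myof, -0.21 to 0.0081 for Fndc3b and -0.028 to 0.11 for Fam3c. The causes were not tested. Ghsr and Ptprz1 rest on the fewest reads, while the spread between libraries was widest for Sst among the members (SE 0.33).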

Other observations

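Several genes with known parts in delta cell signalling were near the limit of detection in whole islets and were not tested. Crhr2, the receptor of urocortin on mouse delta cells, averaged 0.369 RPKM in antibody and 0.336 RPKM in isotype libraries. Cort, the gene of the somatostatin relative cortistatin, averaged 0.166 RPKM in antibody and 0.0582 RPKM in isotype libraries and was listed at 0 in 5 of 10 libraries. Sstr5, a somatostatin receptor, averaged 0.0399 RPKM in antibody and 0.0360 RPKM in isotype libraries. Mboat4, the enzyme that acylates ghrelin, averaged 0.0997 RPKM in antibody and 0.0609 RPKM in isotype libraries. Stra6, the membrane receptor for RBP4, averaged 0.0474 RPKM in antibody and 0.0161 RPKM in isotype libraries and was listed at 0 in 6 of 10 libraries. Ptn, pleiotrophin, a ligand of PTPRZ1, averaged 0.278 RPKM in antibody and 0.595 RPKM in isotype libraries.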
